A study of Mus musculus with 18 samples.

Results

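These results describe contacts between regulatory regions that were pulled down with RNA polymerase II in MEL cells, before and after erythroid induction. MEL is an established mouse erythroleukemia line whose cells are halted as red cell precursors and start to make hemoglobin in dimethyl sulfoxide (DMSO). The groups were untreated cells (day 0) and cells kept for 5 days in 2% DMSO (day 5), both of the same line with no other treatment or genetic change named in the labels. Each day had 2 biological replicates of ChIA-PET with the antibody 4H8 against RNA polymerase II, so 4 of the 18 samples of the series belong to this experiment. The authors deposited 1 list of contacts per day over both replicates, so no value of a day has a spread between replicates and no test of day 5 against day 0 can be made on the lists. RNA-seq, DNase-seq and PU.1 ChIP-seq of the same cells and days, 2 libraries per assay and day, were used only as readouts at the contacting regions. All edges of the lists were used, and regions with an edge on 1 day or both were 7292 of the 130283 regions deposited.

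ChIA-PET fixes chromatin, pulls down a protein with the DNA it holds, ligates DNA ends that lie together and sequences the joined pairs. With an antibody against RNA polymerase II it reports contacts among active promoters and enhancers, mostly between regions of the same chromosome. Such contacts can be drawn as a network, in which a region is a vertex and a contact is an edge. The number of edges of a vertex is its degree, a vertex of high degree is called a hub, and vertices that can be reached from each other over edges form a component. In red cell precursors, distal enhancers and their promoters are brought together by factors such as Ldb1, Gata1 and cohesin while the globin genes are switched on.

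The design text of the series describes 281232 regions made from DNase sites and from peaks of polymerase II and cohesin, enlarged to 1 kb. The 130283 vertices of the 1 kb edge lists were deposited separately: 50735 had the same borders as a described region and 129891 overlapped one, and the steps between the lists are not given. A second set of vertices used 3 kb. Every edge carried a score that the sources used here do not define. Its size multiplied by the summed width of both vertices in kilobases gave a whole number within 0.002 for all 4776 edges of day 0 and all 4618 edges of day 5, and the smallest such number was 4 in every list. Pairs of vertices with the same borders in both sets had the same number in the 1 kb and the 3 kb lists, in 213 of 213 edges on day 0 and 153 of 153 on day 5. The number is called the tag number here, since it acts as a count of joined pairs per edge. Edges that are not listed may have fewer than 4 tags or may have been removed by a filter that the sources used here do not give, so no fold was computed against them. Sequencing depth is unknown, and the listed edges held 38249 tags on day 0 and 40243 on day 5.

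Cell identity was checked in the RNA. Of 10 erythroid markers 8 rose from day 0 to day 5 (limma, Benjamini-Hochberg adjusted p under 0.05), beside 10.7% of the 10736 genes tested that rose and 7.81% that fell. Hba-a1, an alpha globin, was at 426 and 280 FPKM in the libraries of day 0 and at 17923 and 14670 FPKM in those of day 5. FPKM are read levels per length of transcript. Markers of T and B cells, macrophages and granulocytes, fibroblasts, endothelial, epithelial and mast cells (30 genes) all stayed under the filter of 1 FPKM in 2 libraries, and the highest single value was 1.77 FPKM for Pecam1. No gene passed without day 0 replicate 1, without day 0 replicate 2 or without day 5 replicate 1, and 13 passed without day 5 replicate 2, so the calls rest on all 4 libraries. In bulk samples such as these, fewer cells with a transcript or contact and less of it per cell cannot be told apart, and not every cell of day 5 made hemoglobin, per the labels.

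The lists of both days were similar in size and differed in which edges they held. There were 4776 edges on day 0 and 4618 on day 5, of which 22 and 21 joined different chromosomes. Edges listed on both days numbered 1807, which was 37.8% of the edges of day 0 (95% Wilson interval 36.5 to 39.2) and 39.1% of those of day 5 (37.7 to 40.5). Intervals here cover counting error only, not the spread between cultures. When an edge also counted as shared if both of its anchors lay within 10 kb of the anchors of an edge of the other day, the shares were 52.8% and 53.9%. Between 3 kb vertices there were 14259 edges on day 0 and 10563 on day 5, and the 5370 on both days were 37.7% and 50.8% of them.

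Whether an edge was listed on both days followed its tag number closely. Of the day 0 edges with 4 tags, 15.1% (13.03 to 17.3) were also listed on day 5, while of those with 21 tags or more it was 91.3% (86.3 to 94.5). Edges of day 5 gave 16.3% (13.98 to 18.8) at 4 tags and 86.0% (80.9 to 89.9) at 21 or more. Thin edges were many: 1056 edges of day 0 and 892 of day 5 sat at 4 tags. Among edges of 7 tags or more, a limit chosen after seeing the data, there were 2118 on day 0 and 2268 on day 5, the opposite order to the full lists.

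**Figure D1:**
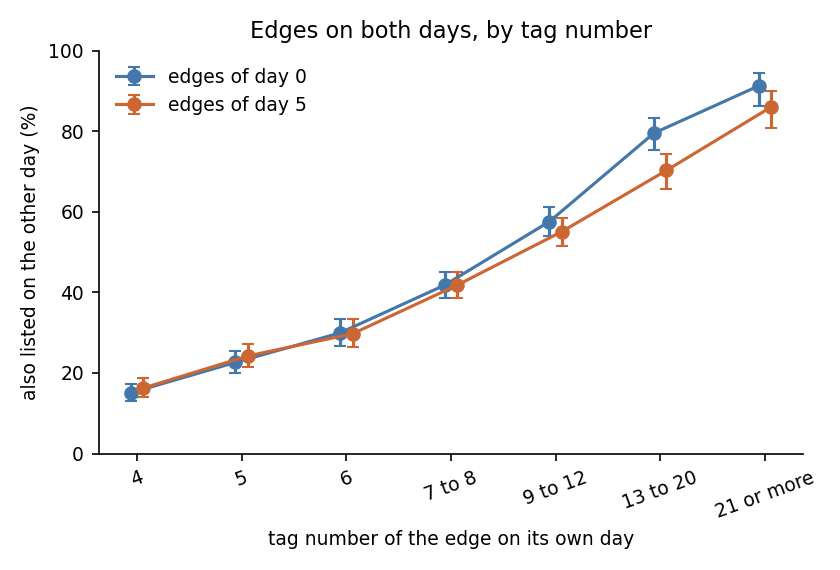
Share of the edges between 1 kb vertices that were also listed on the other day (y axis, percent) by the tag number of the edge on its own day (x axis), for edges of day 0 and of day 5. Points are shares and bars are 95% Wilson intervals, and both lines climb from about 15.1% and 16.3% at 4 tags to 91.3% and 86.0% at 21 tags or more.

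Edges on both days had, in the median, the same tag number on both (ratio of day 5 to day 0 of 1). Of these 1807 edges, 232 (12.8%) had at least 2-fold more tags on day 5 and 195 (10.8%) at least 2-fold fewer. Their summed tags were 19850 on day 0 and 21483 on day 5. Between 3 kb vertices 9.78% had at least 2-fold more and 14.1% at least 2-fold fewer tags, the opposite balance.

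Contacts differed in length between the days, with fewer edges over long distances on day 5. Edges of 100 kb or more numbered 1394 on day 0 and 899 on day 5, which is 29.3% (28.05 to 30.6) and 19.6% (18.4 to 20.7) of the edges within a chromosome. Shorter edges numbered 3360 and 3698. The median distance between anchors was 45.0 kb on day 0 and 38.5 kb on day 5. The difference was graded: the ratio of day 5 to day 0 in the number of edges was 1.04 under 20 kb, 1.13 from 20 to 50 kb, 1.14 from 50 to 100 kb, 0.785 from 100 to 200 kb, 0.525 from 200 to 500 kb and 0.455 from 500 kb on.

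**Figure D2:**
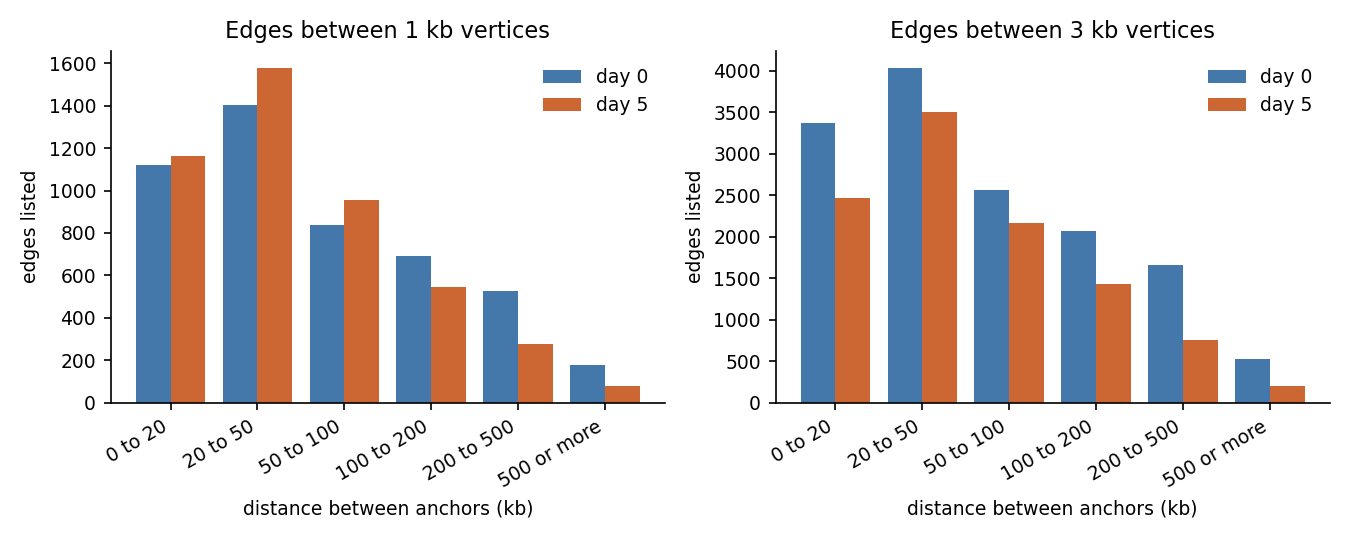
Number of edges listed (y axis) by the distance between the anchors in kb (x axis), on day 0 and day 5, for 1 kb vertices (left) and 3 kb vertices (right). Between 1 kb vertices, day 5 had as many or more edges in each bin under 100 kb and fewer in each bin above, while between 3 kb vertices it had fewer in every bin.

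This pattern did not rest on a few chromosomes or on thin edges. Edges of 100 kb or more were fewer on day 5 on all of 20 chromosomes (1 to 19 and X). Among edges of 4 tags they were 36.8% of the edges within a chromosome on day 0 and 27.8% on day 5, and among edges of 10 tags or more they were 17.3% and 10.2%. In the 3 kb lists, which held fewer edges on day 5 at every distance, the long ones were 43.8% fewer and the shorter ones 18.5% fewer. The ratio there was 0.731 under 20 kb, 0.866 from 20 to 50 kb and 0.373 from 500 kb on.

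The long edges of day 0 were less often listed again than the shorter ones. This is tied to the smaller number of long edges on day 5 and is no separate finding. The same 297 long edges on both days are set against 1394 on day 0 and 899 on day 5. Edges on day 0 alone had a median distance of 59.5 kb, those on both days 33.7 kb and those on day 5 alone 41.6 kb. Among edges with 10 tags or more, 55.4% (48.0 to 62.5) of 177 long and 77.7% (74.7 to 80.3) of 846 shorter edges of day 0 were listed on day 5. At 4 tags it was 6.96% (4.83 to 9.94) of 388 long and 19.8% (17.0 to 23.1) of 665 shorter edges. Seen from day 5, the intervals of long and shorter edges overlapped in all 4 ranges of tag number, in no fixed order. Of the day 5 edges with 10 tags or more, 66.7% (57.7 to 74.6) of the long and 66.6% (63.7 to 69.5) of the shorter had been listed on day 0. The shares were 49.0% (42.2 to 55.9) and 44.8% (41.6 to 48.1) at 7 to 9 tags, 24.6% (20.2 to 29.4) and 27.4% (24.9 to 30.1) at 5 to 6 tags, and 15.7% (11.7 to 20.8) and 16.5% (13.8 to 19.6) at 4 tags.

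Vertices with an edge numbered 5084 on day 0 and 5222 on day 5, of which 3014 had one on both days. Most had few contacts: 3130 vertices on day 0 and 3238 on day 5 had a single edge. Vertices with an edge were wider than the rest (median of 2535.5 bp against 1000 bp over all vertices), and degree followed width across vertices (Spearman 0.343 over 5084 vertices on day 0 and 0.312 over 5222 on day 5, as a description, since a wider region can collect more tags). Across the 3014 vertices with an edge on both days the degrees of the days correlated at 0.464. Of these, 759 had more edges on day 5, 955 had fewer and 1300 had the same number.

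Hubs, vertices with 5 edges or more, numbered 325 on day 0 and 246 on day 5, and 130 were hubs on both days. That is 40% of the day 0 hubs (34.8 to 45.4) and 52.8% of the day 5 hubs (46.6 to 59.0). Few hubs appeared from nothing or vanished: 13 of the day 0 hubs had no edge on day 5, and 13 of the day 5 hubs had none on day 0. Vertices picked as hubs on day 0 had a mean of 7.12 edges that day and 4.37 on day 5, while those picked on day 5 had 5.62 on day 0 and 6.70 on day 5. Picking by 1 day's value lifts that day's mean, so each pair of means describes the hubs and tests nothing. Hubs in the 3 kb lists numbered 1525 and 963. Edges at a hub were longer than others: 36.8% (34.6 to 39.0) of the edges with a hub at an anchor reached 100 kb on day 0, against 24.5% (23.0 to 26.1) of those without, and on day 5 it was 24.7% (22.5 to 27.0) against 17.4% (16.1 to 18.7). The long edges at day 0 hubs numbered 684 on day 0 and 280 on day 5, and 158 of them were the same edges. At day 5 hubs they numbered 434 and 341, with 147 on both days, so the size of the drop depends on which day picked the hubs.

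**Figure D3:**
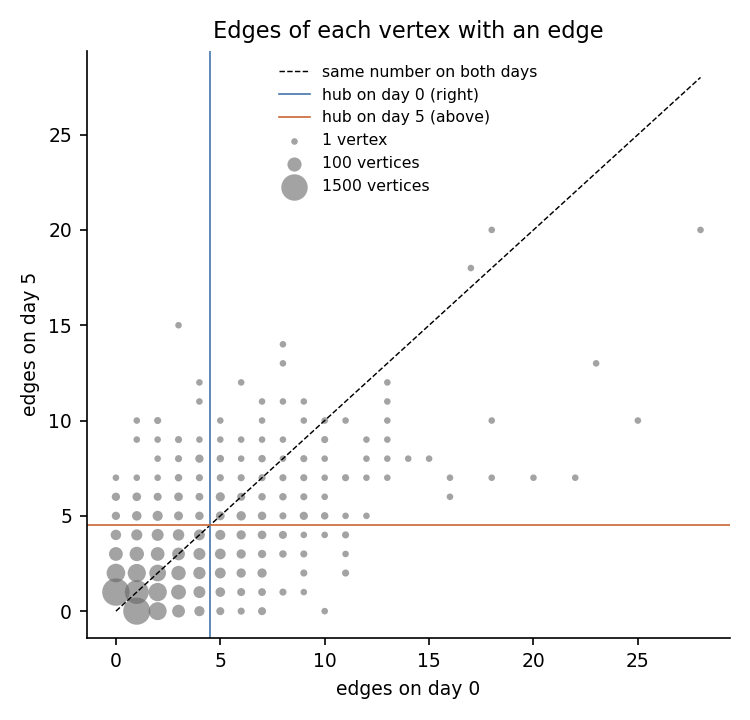
Number of edges of each 1 kb vertex on day 0 (x axis) and on day 5 (y axis), for the 7292 vertices with an edge on 1 day or both. The area of a point grows with the number of vertices there, the dashed line marks equal numbers, and the solid lines mark 5 edges or more, above which 130 vertices lie on both days.

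The vertex with the most edges on day 0 was chr3:96359898-96369002 (mm9), a region of 9105 bp with 28 edges and 363 tags on day 0 and 20 edges and 317 tags on day 5. It was also joint first on day 5, together with chr19:29322812-29329588, which had 18 edges on day 0 and 20 on day 5. Both stayed hubs with most of their partners, since 16 of the 28 and 14 of the 18 edges of day 0 were listed again. Another of the busiest vertices, chr3:95461982-95465410, had 17 and 18 edges, of which 8 were listed on both days, 9 on day 0 alone and 10 on day 5 alone. Over all edges of day 0, 37.8% were listed again, so keeping 8 of 17 was not an unusual turnover. With 3 kb vertices, the one on chromosome 19 had 19 and 18 edges and this one 23 and 18, so the small gains at both turned into small drops.

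The 10 vertices with the largest drop in degree had 169 distinct edges on day 0 and 60 on day 5, and 97 and 30 of these were of 100 kb or more. All 10 also had fewer edges on day 5 in the 3 kb lists. Those lists come from the same libraries and the vertices were picked by their drop, so this is no separate support. The largest drops, of 15 edges, were at chr3:96022507-96027436, from 22 to 7, and at chr19:46102058-46120962, from 25 to 10. The vertex chr15:97672987-97681900 went from 20 edges to 7, and its farthest partner lay 1147 kb away on day 0 and 181 kb away on day 5. One vertex of this group, chr5:30967327-30972931, had 10 edges on day 0 and none listed on day 5, though in the 3 kb lists it went from 14 to 3. The others lay on chromosomes 3, 5, 12, 13 and 19, with 11 to 23 edges on day 0 and 2 to 13 on day 5.

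The 10 vertices with the largest gain had 20 distinct edges on day 0 and 94 on day 5, of which 5 and 23 were long. Again all 10 moved the same way in the 3 kb lists, which is no separate support here either. Of these, 4 lay close together on chromosome 10: chr10:79576750-79579157 went from 3 edges to 15, chr10:79515748-79517588 from 2 to 10, chr10:79601563-79605817 from 4 to 11 and chr10:79501771-79503044 from 0 to 7. These 4 lay within 104 kb and shared edges, with 1 edge among themselves on day 0 and 6 on day 5, so they are not separate observations. On chromosome 12, chr12:32743917-32746920 went from 1 edge with 6 tags to 10 edges with 184 tags. On chromosome 11, chr11:16902326-16906358 went from 4 edges to 12 and chr11:31769940-31774751 from 2 to 10. Chromosome 9 held chr9:65424534-65429250, from 1 to 9, and chr9:66888235-66894012, from 2 to 9, and chromosome 1 held chr1:135973912-135976866, from 2 edges with 30 tags to 8 edges with 163 tags.

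Windows of 1 Mb showed where edges were thinned out or filled in. Windows with an edge numbered 1093, of which 466 had fewer edges on day 5, 452 had more and 175 had the same number. The median difference was 0. The windows named here were picked by their difference, so they describe and test nothing. Several cover vertices named above, such as those of chromosomes 3, 10 and 12, and are not separate observations. The largest drops were from 62 to 31 edges at 23 to 24 Mb of chromosome 13, from 42 to 13 at 114 to 115 Mb of chromosome 12, and from 57 to 30 and from 94 to 68 in the neighbouring windows from 95 to 97 Mb of chromosome 3. The largest gains were from 1 to 23 edges at 32 to 33 Mb of chromosome 12, from 23 to 45 at 75 to 76 Mb of chromosome 1, from 32 to 53 at 125 to 126 Mb of chromosome 8 and from 42 to 62 at 79 to 80 Mb of chromosome 10. The window on chromosome 8 went the other way in the 3 kb lists, from 151 to 135 edges, though its tags there went from 1590 to 1901. A pair of further windows started near 0: the one at 132 to 133 Mb of chromosome 2 had no edge on day 0 and 15 on day 5, and the one at 32 to 33 Mb of chromosome 11 had 2 and 18.

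Edges within a chromosome with the highest scores of each day are described next. They were picked by that day's value, which favours a drop after day 0 and a rise to day 5, so their differences describe these edges and test nothing. The highest score of day 0 belonged to an edge over 12.2 kb on chromosome 4, between chr4:116860657-116865032 and chr4:116874155-116875980, with 126 tags on day 0 (exact Poisson interval 105 to 150) and 18 on day 5 (10.7 to 28.4). Also among the 5 highest were edges among 3 vertices of chromosome 1, at 72272046 to 72274537, 72288900 to 72291735 and 72300267 to 72303780. All 3 edges of this triangle were weaker on day 5: from 95 tags to 24, from 66 to 17 and from 52 to 11. An edge over 16.2 kb from the chromosome 3 hub chr3:96022507-96027436 to chr3:96039838-96042563 went from 106 tags to 23. These 5 edges stayed listed on day 5, so they changed in tag number and not in presence.

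On day 5 the highest score was that of an edge over 18.2 kb between chr3:103593202-103597067 and chr3:103612135-103614465, with 14 tags on day 0 (7.65 to 23.5) and 100 on day 5 (81.4 to 122). The edge between chr7:16879423-16883292 and chr7:16893697-16900170 had 40 and 164 tags. Edges over 20.1 kb at chr8:108324591-108326088 and over 20.4 kb at chr1:135973912-135976866 had 7 and 44, and 8 and 64 tags. Behind the first pair by score, the edge between chr11:102974659-102980658 and chr11:102992936-102998220 had 160 tags on day 5 and was not listed on day 0. The 3 kb lists gave the same, but both of its vertices have the same borders there, so they add nothing. The 5 edges of the highest score of each day spanned 11.7 to 28.7 kb, under the median distances of 45.0 and 38.5 kb.

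Some strong edges of 1 day were missing from the other list altogether. Of 183 edges with over 20 tags on day 0, 16 (8.74%) were not listed on day 5, and of 229 on day 5, 32 (13.97%) were not listed on day 0. Between 3 kb vertices the order was the opposite, 11.3% on day 0 and 9.26% on day 5. At 7 of the 16 and 10 of the 32, both anchors had other edges on the day that lacked the edge. What kept them off the list was not tested. The strongest of them on day 0, chosen after its values were seen, joined chr12:101421766-101426813 and chr12:101436810-101440928 with 82 tags.

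Edges between chromosomes were rare on both days. Between 3 kb vertices they numbered 25 on day 0 and 43 on day 5. Between 1 kb vertices they numbered 22 and 21, and 4 of them were on both. Those 4 held 160 tags on day 0 and 119 on day 5, and the 18 others of day 0 held 121. The strongest joined chr11:114527735-114532596 and chr19:35377372-35379316, with 109 tags on day 0 and 76 on day 5, and a neighbour, chr11:114533191-114536049, joined the same vertex of chromosome 19 with 18 and 10 tags. A pair between chr17:29632981-29641302 and chr2:163467099-163472962 had 28 and 27 tags. The fourth, between chr1:194581846-194583890 and chrX:44888997-44889996, had 5 and 6.

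Most of the other edges between chromosomes met at a few vertices. On day 0, chr2:158141783-158143429 had 7 edges, all to other chromosomes and each to a different one, with 4 to 10 tags apiece, and on day 5 it had none. Its partners included the hub chr13:23661107-23666515 and the vertex chr19:5792494-5805103. The vertex chr2:163467099-163472962, by contrast, had 2 partners on other chromosomes on day 0 and 5 on day 5. Edges between chromosomes on day 0 alone held 121 tags over 18 edges, with 4 to 11 tags each. Those on day 5 alone held 117 over 17, with 4 to 14 each. The median over all edges of each day was 6 tags, so these were about as thin as a typical edge.

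Edges between chromosomes also set the size of the largest component. On day 0 it held 394 vertices on 11 chromosomes, led by 90 on chromosome 3, 79 on chromosome 19 and 65 on chromosome 9, and on day 5 it held 124 vertices on 4 chromosomes, led by 78 on chromosome 3. Of the 394 vertices, 273 had an edge on day 5, spread over 30 components. With edges within a chromosome only, the largest components held 90 and 78 vertices, both of them the same stretch of chromosome 3 from 94640490 to 96533963. That stretch had 176 edges on day 0 and 114 on day 5, and 67 of its vertices were in it on both days. In the 3 kb lists the largest components held 817 and 833 vertices, so the drop from 394 to 124 was not seen there.

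The network as a whole was made of many small pieces on both days. Components numbered 1193 on day 0 and 1335 on day 5, and 643 and 666 of these were a single pair of vertices. Components of 10 vertices or more numbered 73 and 74. Triangles, 3 vertices that all contact each other, numbered 895 and 728, and the share of connected triples that closed into a triangle was 0.218 and 0.240, while between 3 kb vertices it was 0.305 and 0.298.
After the largest, the biggest components of day 0 held 95 vertices on chromosomes 15 and 11, 47 on chromosome 19, 40 on chromosome 11 and 37 on chromosome 12. On day 5 they held 81 vertices over 6 chromosomes, 47 on chromosome 9, 45 on chromosome 8 and 45 over 4 chromosomes. The component of chromosome 9, from 19425770 to 21258279, had 38 of its 47 vertices with an edge on day 0 as well.

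Edge ends were spread unevenly over chromosomes, and the spread was much alike on both days. Chromosome 11 held 7.56% of all vertices but 13.1% of the edge ends on day 0 and 12.3% on day 5. Chromosome 19 held 4.92% of the vertices and 8.30% and 7.21% of the ends, while chromosome 14 held 3.21% of the vertices and 1.30% and 1.80% of the ends. The largest gains in share were on chromosome 1 (4.198% to 5.42%), chromosome 9 (5.82% to 7.03%) and chromosome 6 (3.11% to 3.94%). The largest drops were on chromosome 19, chromosome 3 (7.27% to 6.25%) and chromosome 11. Between 3 kb vertices, 17 of 20 chromosomes moved the same way, but the gain of chromosome 1 was 0.17 percentage points there against 1.23 here. Chromosome 11 differed by -0.17 points there against -0.87 here, where the interval spanned 0 (-1.82 to 0.08). That interval treats both ends of an edge as separate, though nearly all edges lie within a chromosome, so it is too narrow. The share of the tags on chromosome 11 was 0.39 points higher on day 5 between 3 kb vertices. Hubs did not always move with the share. Chromosome 3 had 32 on day 0 and 18 on day 5, and chromosome 1 had 10 and 19, but chromosomes 6, 2 and 8 gained share while their hubs went from 4 to 3, from 8 to 7 and from 19 to 17.

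**Figure D4:**
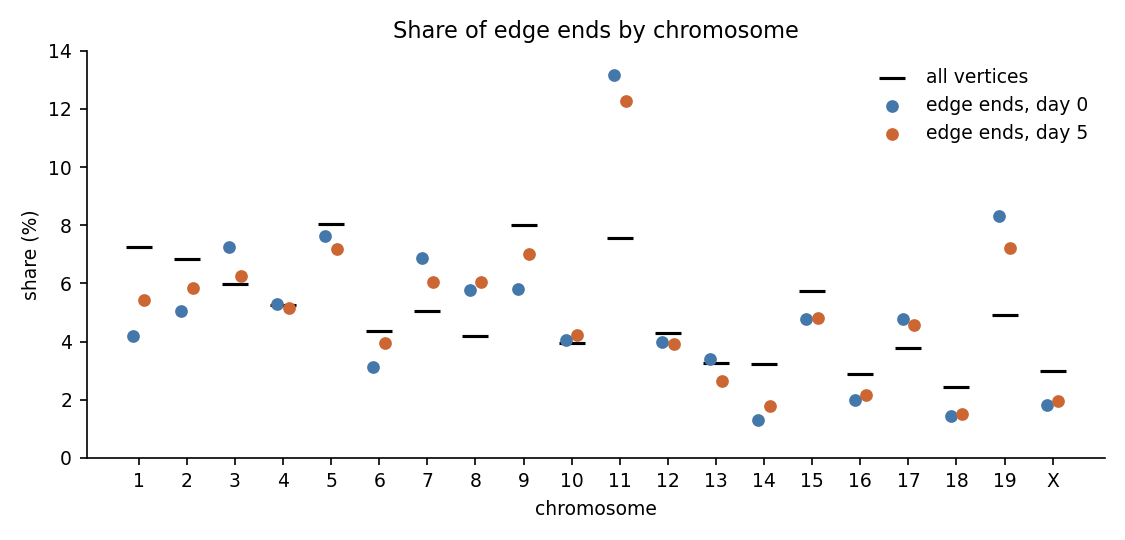
Share of all edge ends on each chromosome (y axis, percent; x axis, chromosome) on day 0 and day 5, with a black bar for the chromosome's share of all 1 kb vertices. Chromosomes 11 and 19 lie above their bars on both days, and the days differ by at most 1.23 percentage points, on chromosome 1.

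Nearly every vertex with an edge was in open chromatin on both days. In the 4 DNase libraries, 98.9% to 100% of the vertices in each edge class overlapped a site, against 76.2% to 90.9% of the vertices with no edge. Most vertices overlap regions made in part from DNase sites, so these levels are partly set by construction. They also move with width. Among vertices of 2 to 4 kb, a limit chosen after seeing the data, those with no edge came close to the others. Their shares were 96.7% and 97.5% in the libraries of day 0, then 99.9% and 99.7% in those of day 5. Between days the share with a site moved by less than 1 percentage point in each edge class (exact two-sided permutation p of 0.333 to 0.667 over 2 against 2 libraries, where 0.333 is the smallest possible). When a site had to overlap by 0.5 of its own length, the shares were 6.30 to 9.54 points higher on day 5 in these classes. For vertices without edges the difference was larger, 12.5 points with any overlap and 16.2 points with that rule. The DNase lists also differed in length, with 190924 and 252611 sites in the libraries of day 0 and 617606 and 518066 in those of day 5. Where the DNase lists over both replicates differed between days, edges were few: of 16682 vertices with a site on day 0 alone, 54 had an edge on day 0 and 24 on day 5. Their edge ends numbered 61 and 26. Of 28946 vertices with a site on day 5 alone, 12 and 14 had an edge, and of 78538 with a site on both days, 5015 and 5183.

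Footprints, short protected stretches within DNase sites, were denser at vertices with more lasting edges. In the list of day 0, vertices with edges on both days held a mean of 9.88 footprints, those with an edge on day 0 alone 5.87, those with an edge on day 5 alone 5.21 and those with none 0.796. Hubs of both days held 21.1. In the list of day 5 the means were 10.4, 5.91, 5.84, 0.780 and 21.7 in the same order. These classes also differ in width (medians of 3033, 2367, 2071.5 and 1000 bp, and 4542.5 bp for the hubs), and wider vertices hold more of any feature. With 1 footprint list per day there is no test.

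PU.1, a transcription factor of myeloid and early blood cells that holds back red cell maturation, was found at many contact vertices and at fewer of them on day 5. Of the 3014 vertices with edges on both days, 57.2% and 71.8% held a PU.1 peak in the libraries of day 0, and 34.6% and 47.3% in those of day 5. The days did not overlap, and the exact permutation p was 0.333, the smallest that 2 against 2 libraries allow. Vertices with an edge on day 0 alone gave 44.7% and 56.7% on day 0 and 23.6% and 33.6% on day 5, and those with an edge on day 5 alone gave 43.5% and 57.0%, then 23.9% and 35.1%. Vertices without edges gave 13.1% and 16.9%, then 4.45% and 7.63%, so the peaks thinned out in every class. Peaks per library numbered 34590 and 46077 before treatment, then 10714 and 18614. With only the 3000 highest peaks of each library the difference turned round, from a mean of 8.46% on day 0 to 11.03% on day 5 at vertices with edges on both days.

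PU.1 peaks were frequent at the hubs of both days. Of these 130 hubs, 80.0% and 93.1% held a peak on day 0 and 60.8% and 67.7% on day 5. Among vertices of 2 to 4 kb, a width limit chosen after seeing the data, the shares on day 0 were 74.5% and 88.2% for these hubs, 56.1% and 71.9% with edges on both days and 39.9% and 53.1% with no edge. At this width, hubs of 1 day alone were not above all vertices with edges on both days in both libraries of day 0. Hubs on day 0 alone gave 57.7% and 69.1%, and hubs on day 5 alone 50.8% and 67.7%. In the libraries of day 5, hubs on day 5 alone were above, at 38.5% and 46.2% against 33.5% and 45.5%. Hubs on day 0 alone gave 32.0% and 54.6% there. Over all widths, both kinds were above in the libraries of day 0. Hubs on day 0 alone gave 63.1% and 77.9%, and hubs on day 5 alone 57.8% and 75.9%, against 57.2% and 71.8%. Width therefore moves with these shares: the ratio of vertices with edges on both days to vertices with none was 4.38 and 4.26 in the libraries of day 0 over all widths, and 1.40 and 1.35 among those of 2 to 4 kb.

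**Figure D5:**
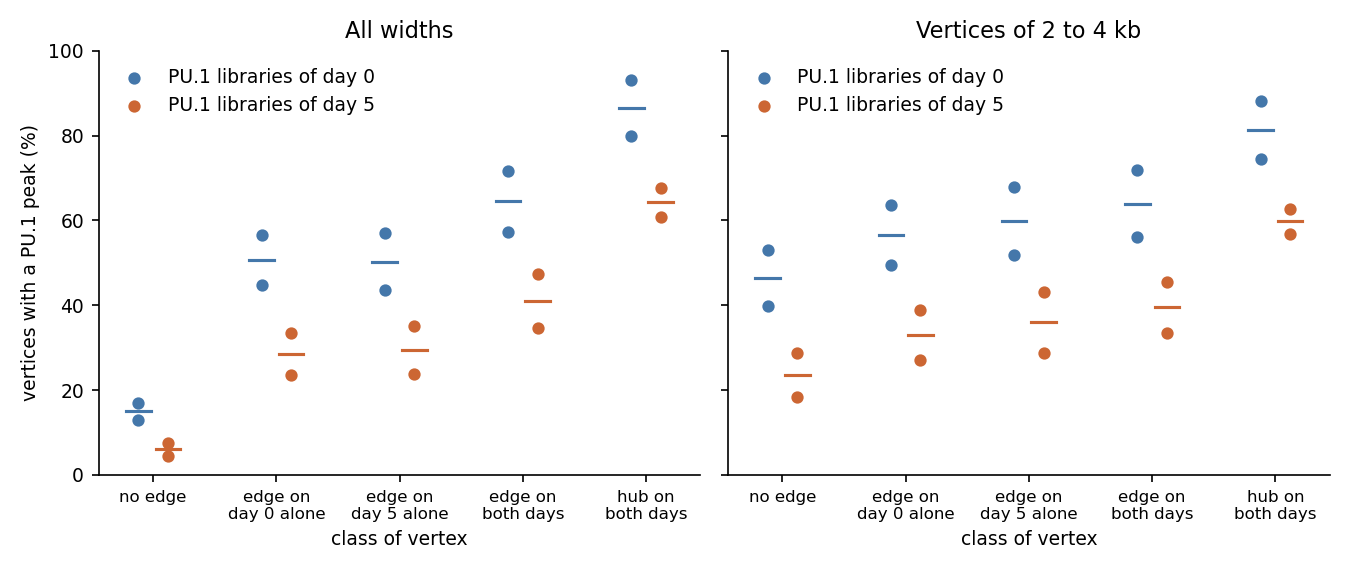
Share of 1 kb vertices that overlapped a PU.1 peak (y axis, percent) by class of vertex (x axis), for all widths (left) and vertices of 2 to 4 kb (right). Points are the 2 libraries of each day and short lines their mean, and in every class both libraries of day 5 lie below both of day 0.

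Vertices with a PU.1 peak in the merged list of day 0 alone had slightly fewer edge ends on day 5, as did vertices in general. The merged list of day 5 held 3530 peaks and its libraries 10714 and 18614. A vertex without a merged peak can therefore still hold a peak in a library. Of 7439 vertices with a peak in the replicate-merged list of day 0 and none in that of day 5, 879 had an edge on day 0 and 880 on day 5. Their edge ends numbered 1861 and 1719, a ratio of 0.924. Vertices with a peak on both days had 1170 and 1141 ends (0.975), and those with none on either day had 6407 and 6288 (0.981). Over all vertices there were 9552 and 9236 ends (0.967). By edge, 56.1% (53.1 to 59.0) of the long edges on day 0 alone had a merged day 0 peak at an anchor, against 58.2% (52.6 to 63.7) of the long edges on both days. Among edges under 100 kb the shares lay apart, 47.6% (45.4 to 49.9) on day 0 alone and 55.4% (52.9 to 57.9) on both days. Over all edges they were 50.9% (49.1 to 52.7) and 55.8% (53.5 to 58.1). Edges on day 5 alone gave 51.2% (47.2 to 55.1) of the long, 49.1% (47.0 to 51.2) of the shorter and 49.6% (47.7 to 51.4) of all. Among shorter edges and over all edges, those on both days thus lay above those of either day alone. Among long edges the intervals of these classes overlapped. Within a chromosome, edges on both days carried more tags, with medians of 8 on day 0 and 9 on day 5. The medians were 5 for edges on day 0 alone and 6 for those on day 5 alone. Vertices with edges on both days were also wider (median of 3033 bp, against 2367 and 2071.5 bp for day 0 and day 5 alone).

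Genes for the proteins that hold contacts together were expressed on both days without a called change. Of 18 genes of this list, 0 passed the threshold (limma, adjusted p of 0.0684 to 0.972), beside 18.5% of all tested genes. An unadjusted p under 0.05 was reached by 4 of the 18, beside 38.6% of all tested genes. The median log2 change of the list was 0.07 and that of all tested genes 0.15, on the log2(FPKM + 1) scale. Ctcf, the insulator protein at loop anchors, was at 64.4 and 62.5 FPKM on day 0 and at 73.3 and 74.0 on day 5. Smc3, a ring subunit of cohesin, was at 146 and 180 FPKM, then 100 and 110 (log2 change -0.62 ± 0.18 SE, adjusted p = 0.0684). Nipbl, which loads cohesin, was at 39.8 and 38.6 FPKM, then 54.5 and 70.7 (0.65 ± 0.20 SE, adjusted p = 0.0759). For these genes no library of one day lay within the range of the other. Yy1, a factor that can bridge promoters and enhancers, gave 77.2 and 72.7 FPKM on day 0 and 36.8 and 83.8 on day 5, so its day 5 replicates lay on either side of day 0. Polr2a, the largest subunit of the polymerase that the antibody binds, gave 39.0 and 35.2, then 78.0 and 43.7 FPKM. Ldb1, which joins enhancer complexes in red cell precursors, was the most abundant at 884 and 797, then 1008 and 1185 FPKM.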

How the data were processed

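The authors deposited ChIA-PET edges as 1 list per day with a score per edge, over vertices given as mm9 positions. The submitters' processing notes name Bowtie for ChIA-PET, while the sources used here do not give the contact caller. From the score, tag numbers were computed as described in the report. Networks were built with networkx 3.6.1 and intervals with scipy 1.17.1. The authors deposited DNase sites per replicate and footprints per day with a score, and PU.1 peaks per replicate with 2 values, a ratio over background and a −log10 p, made by MACS2 2.0.10 on Bowtie 1.0.0 alignments, per the submitters' processing notes. The list merged over PU.1 replicates carries the authors' IDR, a deposited q-value. Overlaps of at least 1 base were found with bedtools 2.31.1. The authors deposited RNA as FPKM, so read depth is unknown. Day 5 was tested against day 0 on log2(FPKM + 1), over genes that reached 1 FPKM in 2 or more libraries, by limma 3.58.1 with a mean-variance trend (R 4.3.3; Benjamini-Hochberg adjusted p under 0.05). The biological replicates are separate by the labels. Scripts for tag numbers and RNA were tested on simulated data.

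Vertices were named by rule: on each day the 10 with the most edges, and the 10 with the largest gain and drop. Edges were named by score (the 5 highest of each day within and between chromosomes), components by size (the 5 largest) and chromosomes by share (the 3 largest gains and drops), while windows were added later. The members and lists were chosen with earlier results of these data known. No gene was assigned to a vertex and no sequence printed, since an mm9 genome or annotation was not used here.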

Additional observations from a re-analysis of the deposited data

How the results depend on the processing

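Long edges were a smaller share on day 5 under each alternative run: the difference, -9.77 percentage points over all edges, was -7.17 in the 3 kb lists, -12.2 among edges of at least 20 kb and, chosen after seeing the data, -15.6 among edges on 1 day alone; the median distance differed by -14.5 and -18.0 kb in the last pair. In the 3 kb lists 50.8% of the day 5 edges were on both days, the number of edges differed by -25.9% and of hubs by -36.9%, and the largest component was 16 vertices larger on day 5. With edges within a chromosome only, the difference in the largest component was -12 vertices between 1 kb vertices (90 and 78), and between 3 kb vertices it held 191 and 126. With edges of 7 tags or more, 45.9% and 42.9% were on both days and edges were 7.08% more on day 5; with anchors within 10 kb, 52.8% and 53.9% were. Hubs of 10 edges or more were kept in 25.6% and differed by -39.5%, and those of 3 or more in 46.7% and by -6.02%. Counts of RNA calls went from 1989 to 237 without a filter and to between 0 and 13 with a library left out, where 2504 to 3440 of the 10736 genes tested had an unadjusted p under 0.05. The replicate block gave 1797 calls, and deviations of same-numbered replicates correlated at 0.048 across genes. With 2 libraries per day this cannot settle whether the numbers pair the libraries, so the block is only a check. DNase shares differed by 6.30 and 9.54 percentage points with an overlap of at least 0.5 of the site required (edges on both days, day 0 alone), against -0.20 and -0.70, and by 0 among vertices of 2 to 4 kb; with a library left out the day 5 alone class ranged from 0 to 0.272. With the top 3000 peaks, PU.1 shares were 2.57, 1.43 and 2.63 points higher on day 5 (both days, day 0 alone, day 5 alone), the other way round. The cause of these differences was not tested. RNA at vertices, with its alternatives, was not run. Unknown depth limits every comparison of edge numbers.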

Other observations

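Kept edges of 100 kb or more had a median tag ratio of day 5 to day 0 of 0.917, against 1 for the shorter ones. The 3 kb lists gave 0.857 and 1. Of 297 long edges on both days, 23 had at least 2-fold more tags on day 5 and 41 at least 2-fold fewer.

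Tags moved with the edges. Edges of 100 kb or more held 24.5% of the tags of edges within a chromosome on day 0 and 15.1% on day 5. Between 3 kb vertices they held 24.3% and 17.6%.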
